A study of Mus musculus with 16 samples.

Results

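Complement was read here through 8 genes for components, regulators and receptors of the cascade: C3, C4b, C2, Cfb, Cfp, Serping1, C3ar1 and C5ar1. The members were the probe sets whose platform annotation gave exactly 1 of these symbols, which 6 of the 8 genes had, out of 18194 gene symbols on the array. The 6 genes had 12 such probe sets, 11 of them above the filter on low signal, and all 6 genes were tested. The annotation listed no probe set for C3, the central component, and C4b appeared only on a probe set shared with C4a, so neither was tested as a gene. RNA came from the whole aorta of 16 individual mice, 1 Affymetrix array per mouse, in 4 groups of 4. All mice were ApoE-/-, lacking apolipoprotein E and therefore prone to atherosclerosis, and all ate a high fat diet for 10 weeks from 8 weeks of age, so that the tissue was taken at 18 weeks. The diabetic RBX mice were given STZ (streptozotocin, a beta cell toxin) at 6 weeks and RBX in the diet. RBX is ruboxistaurin (LY333531), which inhibits the beta form of protein kinase C. Its dose is not stated in the labels. The diabetic mice had STZ without RBX, the non-diabetic RBX mice had RBX without STZ, and the non-diabetic mice had neither. The design thus asks what STZ diabetes and RBX each do to the aorta of a mouse that already lacks ApoE and eats a high fat diet.

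Complement is a cascade of plasma and cell-surface proteins that marks particles and cells for uptake and can pierce membranes. The classical pathway starts with C1q and the lectin pathway with ficolins and collectins. Both cut C4 and C2 to form a convertase that cleaves C3. The alternative pathway builds its own C3 convertase from C3b and factor B, and properdin holds that complex together. Small fragments released on the way, C3a and C5a, act through receptors on myeloid cells. Complement proteins are found in atherosclerotic lesions, and macrophages, smooth muscle cells and fibroblasts of the vessel wall can make several of them besides the liver.

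The deposited values are MAS5 signals on a linear scale. The words rose and fell are kept for an adjusted p under 0.05 in limma (Benjamini-Hochberg over 11037 genes). Levels below are linear signals and differences are on the log2 scale. The arrays of the non-diabetic RBX mice stood apart. The cre hybridisation control, a spiked-in transcript, gave 261860 to 294506 in diabetic RBX, 207830 to 275438 in diabetic, 308745 to 575618 in non-diabetic RBX and 156465 to 249020 in non-diabetic mice. For Actb, the log2 signal of the control probe set at the 3' end minus that at the 5' end, which grows as RNA is degraded or labelling shortened, was 1.47 to 1.89, 1.16 to 1.52, 1.67 to 2.51 and 0.85 to 1.32 in the same order of groups. Neither range of the non-diabetic RBX arrays overlapped that of the non-diabetic arrays, so these measures and RBX cannot be told apart in non-diabetic mice. The cre range of the non-diabetic RBX arrays did not overlap that of the diabetic RBX arrays either, though the Actb ranges did. The cre signal and diabetes thus cannot be told apart among mice given RBX. The smooth muscle markers were all 10 above the filter, as in a vessel wall, while all 8 hepatocyte markers, albumin among them, and all 6 lymphocyte markers lay below it.

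Promoters are shown for Cfp, C3ar1 and C5ar1, properdin and the receptors, the 3 of 6 tested members with an entry in the RefSeq promoter table of build GRCm38.p6. The 250 bases before each start are printed 5′ to 3′ on the minus strand, on which all 3 genes lie. Capitals mark the letters AGGAAG on either strand, a core recognised by ETS factors such as the myeloid factor PU.1.
Cfp, chrX:20931556-20931805: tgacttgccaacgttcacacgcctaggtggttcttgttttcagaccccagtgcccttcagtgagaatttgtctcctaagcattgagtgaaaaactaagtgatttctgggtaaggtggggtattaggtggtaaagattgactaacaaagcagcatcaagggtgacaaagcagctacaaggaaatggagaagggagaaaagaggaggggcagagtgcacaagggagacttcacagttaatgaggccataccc
C3ar1, chr6:122856158-122856407: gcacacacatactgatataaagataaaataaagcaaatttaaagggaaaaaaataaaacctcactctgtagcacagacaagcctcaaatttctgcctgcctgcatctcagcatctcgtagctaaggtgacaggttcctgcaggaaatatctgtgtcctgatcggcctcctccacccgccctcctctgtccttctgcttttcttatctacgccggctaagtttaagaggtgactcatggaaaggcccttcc
C5ar1, chr7:16259339-16259588: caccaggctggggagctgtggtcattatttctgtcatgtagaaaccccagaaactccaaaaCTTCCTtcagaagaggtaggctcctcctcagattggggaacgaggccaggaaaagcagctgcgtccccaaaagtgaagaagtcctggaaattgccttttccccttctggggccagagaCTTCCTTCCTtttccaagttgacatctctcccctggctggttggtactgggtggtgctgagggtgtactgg
The letters were found in C5ar1 alone of the 3, with matches that begin 189, 71 and 67 bases before the start, the last 2 overlapping, and 29.5% of 32851 mouse promoter windows of this length hold them. A second form of the core, GAGGAA, was searched after this result was known. It was in none of the 3 windows, against 23.3% of all windows. The interferon-stimulated response core, GAAA and again GAAA after any 2 bases, and the GAS motif TTCNNNGAA had no match in the 3 windows either, against 2.98% and 7.02% of all windows. Each search covered both strands, and a match is a description of letters only.

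Cfb, on the array probe set 1417314_at, encodes factor B, the serine protease of the alternative pathway convertase. Its signal was 5163.0, 6576.7, 5801.4 and 5569.1 in diabetic RBX mice and 4430.7, 5645.1, 5393.8 and 3671.9 in diabetic mice. It was 5395.6, 5181.0, 4188.5 and 2591.7 in non-diabetic RBX mice, against 3511.0, 3641.5, 4347.0 and 1776.3 in non-diabetic mice. The order of the means ran from diabetic RBX (5778 ± 595, SD, n = 4 in each group) over diabetic (4785 ± 908) and non-diabetic RBX (4339 ± 1278) to non-diabetic (3319 ± 1092), and every pair of neighbours in that order overlapped. The lowest signals of the series were those of mouse 4 in both non-diabetic groups.

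Cfp, on the X chromosome, encodes properdin, the positive regulator that stabilises the same convertase and is made largely by leukocytes. On probe set 1452279_at its signal was 3166.1, 3397.7, 3810.3 and 3499.0 in diabetic RBX mice and 2273.3, 2859.6, 5175.1 and 4887.8 in diabetic mice. It was 3995.2, 4067.8, 3877.0 and 4875.1 in non-diabetic RBX mice, against 1916.7, 2098.7, 2376.0 and 2153.9 in non-diabetic mice. The non-diabetic mice were the lowest group, and only diabetic mouse 1 fell within their range. The diabetic mice split into a low pair, mice 1 and 2, and a high pair, mice 3 and 4, which gave the widest spread of the 4 groups (3799 ± 1448), against 3468 ± 267 in diabetic RBX, 4204 ± 454 in non-diabetic RBX and 2136 ± 189 in non-diabetic mice. The second probe set of Cfp, 1447537_at, gave 1421 ± 296, 1314 ± 433, 1630.5 ± 419 and 1163 ± 200 in the same order of groups.

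C2 encodes the serine protease of the classical and lectin convertase and lies beside Cfb in the RefSeq gene table. On probe set 1441912_x_at it gave 2922.3, 2819.5, 4031.2 and 3639.8 in diabetic RBX mice and 3114.1, 2824.1, 2291.8 and 1944.7 in diabetic mice. It gave 4988.2, 3545.6, 1568.8 and 3327.6 in non-diabetic RBX mice, against 2621.2, 2082.8, 1845.1 and 1703.8 in non-diabetic mice. The non-diabetic RBX group held both the highest and the lowest of the 16 values (3358 ± 1402), and the other groups averaged 3353 ± 581 in diabetic RBX, 2544 ± 525 in diabetic and 2063 ± 404 in non-diabetic mice. A tighter picture came from the probe set 1457664_x_at, with 1900.3 to 3298.7 in non-diabetic RBX mice, against 1505.9 to 1554.9 in non-diabetic mice. The third C2 probe set, 1416051_at, ranged from 1063.7 to 2796.3 in non-diabetic RBX mice, against 1052.4 to 1644.1 in non-diabetic mice. Its partner in that convertase could be read only as C4a and C4b together, on 1418021_at, where signals averaged 24693 ± 2208 in diabetic RBX, 23958 ± 2366 in diabetic, 26131 ± 4848 in non-diabetic RBX and 18363 ± 3458 in non-diabetic mice. These near-identical genes cannot be separated on that probe set, so the value is uncertain for either.

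Serping1 encodes C1 inhibitor, the protease inhibitor that shuts down C1r, C1s and the lectin pathway proteases. Its probe set 1416625_at gave 59113.3, 71948.8, 64187.1 and 64044.7 in diabetic RBX mice and 56686.8, 61673.0, 54240.5 and 44630.7 in diabetic mice. It gave 93942.9, 71557.0, 63303.4 and 46436.6 in non-diabetic RBX mice, against 41448.7, 43331.0, 48265.8 and 42912.5 in non-diabetic mice. Of the 4 non-diabetic RBX mice 3 lay above all non-diabetic mice, and mouse 4 lay among them. The group means were 64824 ± 5304 in diabetic RBX, 54308 ± 7154 in diabetic, 68810 ± 19749 in non-diabetic RBX and 43990 ± 2963 in non-diabetic mice.

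The receptor genes C3ar1 and C5ar1 encode the G protein-coupled receptors for C3a and C5a. C3ar1 (1419483_at) gave 7734.5, 7869.9, 7857.3 and 8895.7 in diabetic RBX mice and 6047.9, 8699.9, 11474.1 and 11166.5 in diabetic mice. It gave 7597.5, 9446.3, 12953.7 and 10374.6 in non-diabetic RBX mice, against 6561.0, 7366.8, 9155.4 and 7773.3 in non-diabetic mice. All 4 groups overlapped, and the diabetic mice again had their lowest value in mouse 1 and their highest in mice 3 and 4. C5ar1 (1439902_at) was a dim probe set, just inside the filter at the 52.8th percentile of the mean signal, with 443.7, 421.6, 461.1 and 557.9 in diabetic RBX mice and 372.5, 674.0, 507.2 and 464.7 in diabetic mice. It gave 553.5, 563.9, 703.1 and 584.0 in non-diabetic RBX mice, against 382.9, 258.3, 296.3 and 285.7 in non-diabetic mice. The non-diabetic mice averaged 306 ± 53.8, below the filter's 382.961, so the gene was tested only because of its level in the other groups. The other C5ar1 probe set, 1422190_at, lay below the filter, with a mean of 258 in non-diabetic RBX mice, against 159 in non-diabetic mice.

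**Figure D1:**
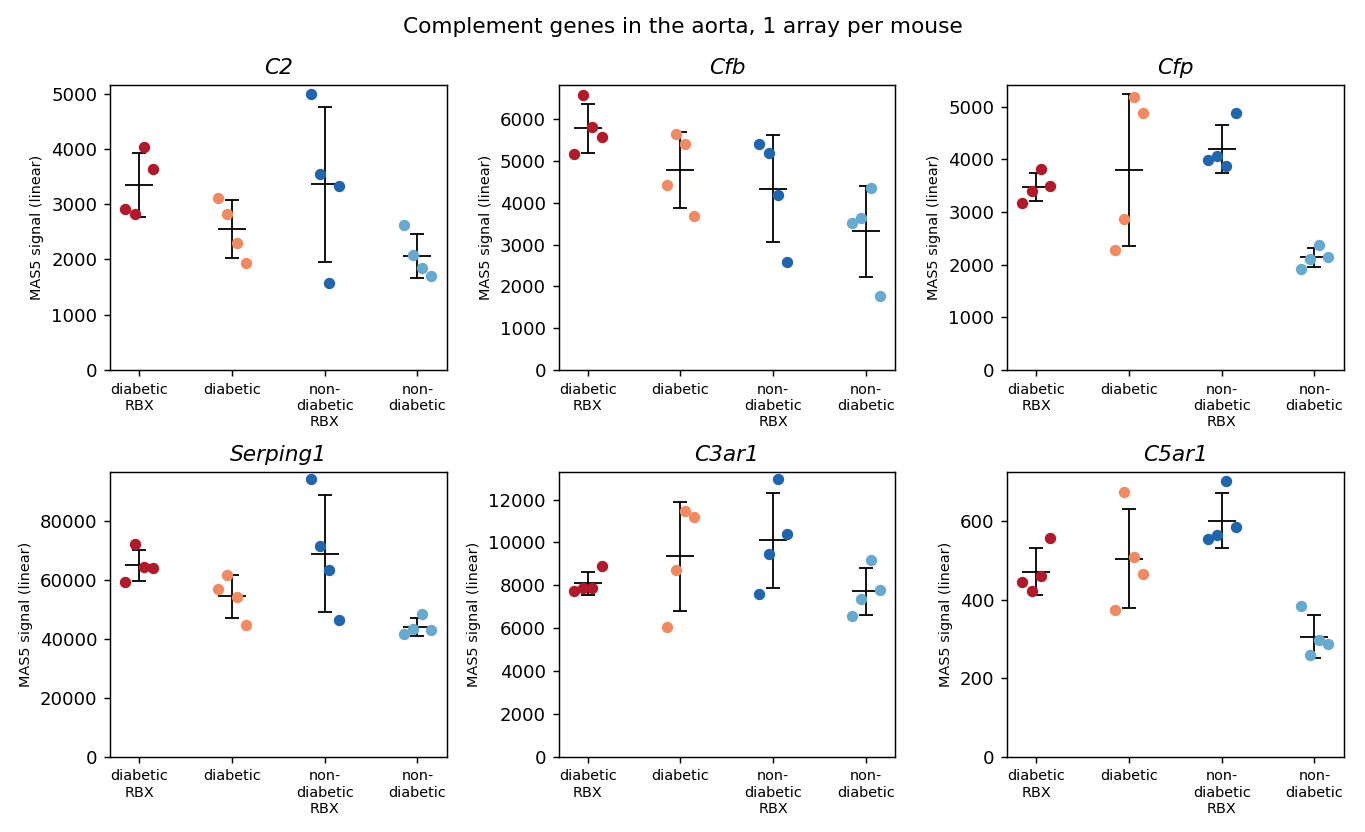
MAS5 signal on a linear axis (y) of the 6 tested complement genes in each of the 4 groups (x), with 1 point per mouse, the mean as a horizontal bar and the SD as the error bar (n = 4). For Cfp and C5ar1 all non-diabetic RBX mice lay above all non-diabetic mice, and for Serping1 only non-diabetic RBX mouse 4, at 46436.6, lay within the non-diabetic range.

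RBX in non-diabetic mice went with higher signals of properdin, C1 inhibitor and the C5a receptor. Cfp rose by 0.97 on the log2 scale (SE 0.20, adjusted p = 0.00117), a 1.97-fold difference, and C5ar1 by 0.98 (SE 0.25, adjusted p = 0.00663), a 1.98-fold difference. In both genes the 4 non-diabetic RBX mice lay above the 4 non-diabetic mice, as they did for 14.3% of all genes. Serping1 rose by 0.60 (SE 0.15, adjusted p = 0.00671), a 1.52-fold difference. The other members gave 0.61 for C2 (SE 0.26, adjusted p = 0.0794), 0.41 for Cfb (SE 0.24, adjusted p = 0.218) and 0.37 for C3ar1 (SE 0.18, adjusted p = 0.119). Thus 3 of 6 members rose and 0 fell, in a comparison where 16.5% of all genes rose and 15.1% fell. All 6 lay above 0, with a median of 0.60, against 0.03 over all genes, of which 53.1% lay above 0. C5ar1 passed the filter only through its higher groups, and without it 2 of 5 members rose. All 3 calls were lost when the cre signal or the Actb ratio was a term of the fit, with values given at the end.

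Other probe sets of the members were read in a fit of all probe sets apart. For RBX in non-diabetic mice that fit, over 45101 probe sets without a filter, gave 3659 calls in all. There C2 1457664_x_at rose by 0.72 (SE 0.17, adjusted p = 0.00551) and C3ar1 1442082_at by 0.48 (SE 0.15, adjusted p = 0.0420). The rest were not called. Cfp 1447537_at gave 0.47 (SE 0.22, adjusted p = 0.189) and C3ar1 1419482_at gave 0.07 (SE 0.15, adjusted p = 0.828). C2 1416051_at gave 0.45 (SE 0.25, adjusted p = 0.267) and C5ar1 1422190_at gave 1.04 (SE 0.69, adjusted p = 0.370). The shared probe set of C4a and C4b rose by 0.51 (SE 0.14, adjusted p = 0.0190). Over the 4 comparisons of 2 groups the 6 other probe sets had the sign of the one used in 22 of 24 cases. The 2 exceptions were C2 1457664_x_at for diabetes with RBX (-0.08, against 0.10) and Cfp 1447537_at for RBX in diabetic mice (0.14, against -0.05). Of the genes that missed the threshold, C2 passed without non-diabetic RBX mouse 3 (0.93, adjusted p = 0.00179), Cfb without mouse 4 of that group (0.63, adjusted p = 0.0452) and C3ar1 without mouse 1 of that group (0.50, adjusted p = 0.0426). In each case the mouse left out had the lowest signal of its group. Each gene stayed uncalled in 7 of the 8 fits without 1 mouse, with values down to 0.38, 0.13 and 0.24 in that order.

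Between the non-diabetic RBX and the non-diabetic mice, the markers of macrophages moved in the same direction as the members, as did several other lists. Of 15 macrophage markers 12 rose with RBX in non-diabetic mice, with a median of 0.72. Their summed signal ran from 393441 to 676976 in non-diabetic RBX mice, against 291915 to 436192 in non-diabetic mice. Of 10 endothelial markers 8 rose, and of 23 interferon response genes 20 rose with a median of 0.74. The 2 neutrophil markers above the filter rose as well, while the neutrophil granule genes Camp, Ltf and Ngp and the receptor Cxcr2 lay below it. Of 10 adventitial fibroblast markers 4 rose, of 6 white adipocyte markers 3 and of 4 mesothelial markers 3, while 6 of 10 smooth muscle markers fell and 2 rose. The part of these cell types and of the array measures in the rise of Cfp, Serping1 and C5ar1 was not tested beyond the covariate fits given with the plot of settings. In whole tissue, fewer cells of a type and less RNA per cell cannot be told apart.

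**Figure D2:**
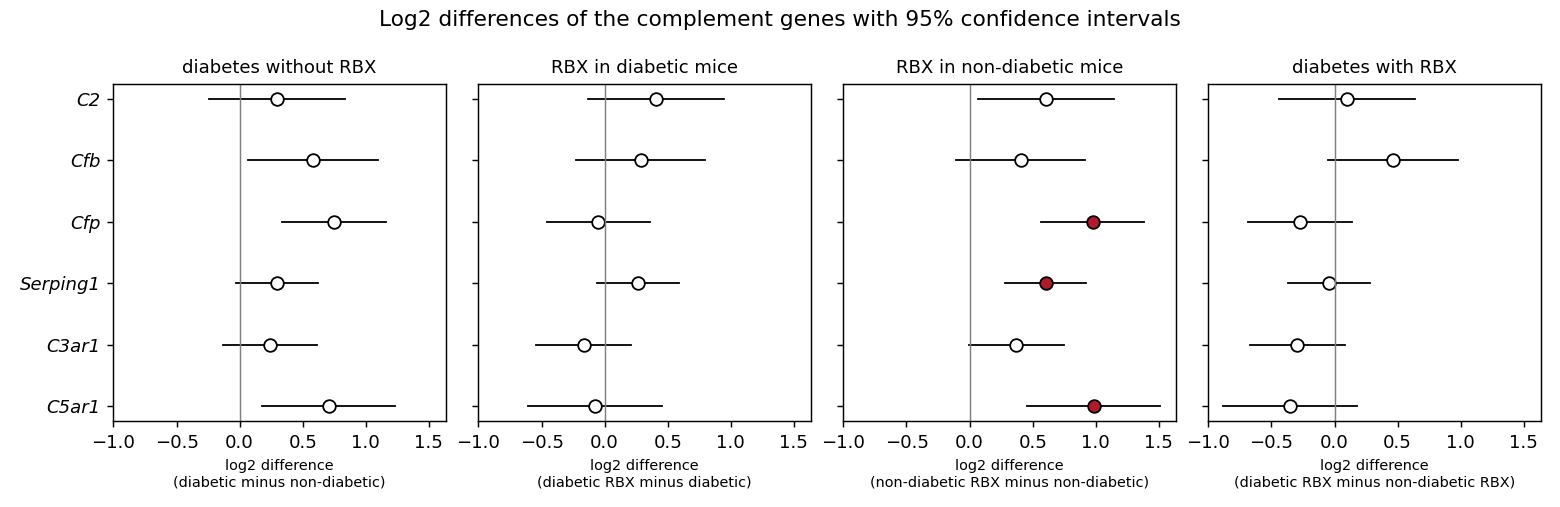
Log2 difference (x) of each of the 6 tested complement genes (y) in the 4 comparisons of 2 groups, with 95% confidence intervals as lines, and filled points for adjusted p under 0.05. Filled points appear only for Cfp, Serping1 and C5ar1 under RBX in non-diabetic mice, at 0.97, 0.60 and 0.98.

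Diabetes without RBX gave higher mean signals of all 6 members, none of which passed the test. The largest differences were those of Cfp (0.75, SE 0.20, adjusted p = 0.0720), C5ar1 (0.71, SE 0.25, adjusted p = 0.179) and Cfb (0.58, SE 0.24, adjusted p = 0.257). Serping1 gave 0.30 (adjusted p = 0.374), C2 gave 0.30 (adjusted p = 0.637) and C3ar1 gave 0.24 (adjusted p = 0.562). Thus 0 of 6 members were called in limma, against 0.652% of all genes, and 3 had an unadjusted p under 0.05, as did 15.2% of all genes. The median was 0.44 for the members and 0.01 over all genes. Cfp passed when diabetic mouse 1, the lowest of its group, was left out (0.97, adjusted p = 0.0112). This comparison shares its 4 non-diabetic arrays with that of RBX in non-diabetic mice, so the like signs of both are not independent. On the same arrays 15 of 15 macrophage markers lay above 0 with a median of 0.46, 0 of them passing, and 7 of 23 interferon response genes rose. Their part in the members' values was not tested.

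RBX in diabetic mice left the members without a call. The differences were 0.41 for C2 (95% interval -0.13 to 0.95), 0.29 for Cfb (-0.23 to 0.80), 0.26 for Serping1 (-0.06 to 0.59), -0.05 for Cfp (-0.46 to 0.36), -0.07 for C5ar1 (-0.60 to 0.45) and -0.17 for C3ar1 (-0.54 to 0.21). In limma 0 of 6 members were called and 0 had an unadjusted p under 0.05, with adjusted p from 0.625 to 0.963, in a comparison that called 0.0453% of all genes and gave 9.2% an unadjusted p under 0.05. All 6 intervals include 0, and without 1 diabetic mouse Cfp reached 0.13 and C5ar1 0.076, above 0. These counts are of the probe set used per gene. In the limma fit of all probe sets apart, C3ar1 1419482_at had the lowest value of the members' probe sets (-0.45, SE 0.15, unadjusted p = 0.00638, adjusted p = 0.416). Its signal was 3432 ± 308 in diabetic RBX mice, against 4755 ± 921 in diabetic mice. In that fit C2 1457664_x_at gave 0.41 (SE 0.17, unadjusted p = 0.0222, adjusted p = 0.556), so neither was called. The intervals for Cfp and C5ar1 reach 0.36 and 0.45 at most. In the comparison of RBX in non-diabetic mice the values were 0.97 (0.57 to 1.38) for Cfp and 0.98 (0.46 to 1.51) for C5ar1. The interaction, given below, passed for Cfp and missed the threshold for C5ar1.

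Diabetes with RBX, the diabetic RBX mice set against the non-diabetic RBX mice, called 0 of 6 members in limma and gave 0 of them an unadjusted p under 0.05, where 7.1% of all genes were called and 24% had an unadjusted p under 0.05. The values were 0.46 for Cfb (SE 0.24, adjusted p = 0.254), 0.10 for C2, -0.04 for Serping1, -0.27 for Cfp (adjusted p = 0.404), -0.30 for C3ar1 and -0.35 for C5ar1. For Cfp the highest diabetic RBX signal, 3810.3, lay just below the lowest non-diabetic RBX signal, 3877.0, so the groups did not overlap although the gene missed the test. That pattern held for 6.26% of all genes. Macrophage markers were below 0 in 15 of 15 cases here, with a median of -0.32 and 0 called. The cre signal also separated these groups, so it and diabetes cannot be told apart in these values. With the cre signal as a term 0 members were called, and Cfp gave -0.18 (adjusted p = 0.811).

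The interaction asks whether RBX acted alike in both kinds of mice, and is the RBX difference among diabetic mice less that among non-diabetic mice. It passed for properdin, with -1.02 for Cfp (SE 0.28, adjusted p = 0.0231), from -0.05 in diabetic and 0.97 in non-diabetic mice. C5ar1 gave a value as large that missed the threshold (-1.06, SE 0.36, adjusted p = 0.0613), and C3ar1 gave -0.54 (SE 0.25, adjusted p = 0.172). For Serping1 (-0.34, SE 0.22, adjusted p = 0.329), C2 (-0.20, SE 0.36, adjusted p = 0.761) and Cfb (-0.12, SE 0.35, adjusted p = 0.858) a difference in the effect of RBX was not shown. Thus 1 of 6 members fell, in a comparison where 5.51% of all genes did. Cfp lost its call without diabetic mouse 3, its highest (-0.85, adjusted p = 0.0524), with the cre signal as a term (-0.88, adjusted p = 0.383) and with the Actb ratio (-1.06, adjusted p = 0.112). Without diabetic mouse 1, C5ar1 (-1.19, adjusted p = 0.0373) and C3ar1 (-0.73, adjusted p = 0.0285) passed as well. Of 15 macrophage markers 7 fell in the interaction and of 23 interferon response genes 9 did, and their part in the value of Cfp was not tested.

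Averaged over diabetic and non-diabetic mice, Serping1 rose with RBX by 0.43 (SE 0.11, adjusted p = 0.0103) and Cfp by 0.46 (SE 0.14, adjusted p = 0.0250), 2 of 6 members where 9.41% of all genes rose. Both calls were lost with the cre signal as a term (adjusted p = 0.114 for Serping1 and 0.558 for Cfp) and with the Actb ratio (0.266 and 0.414). For Serping1 the effect was 0.26 in diabetic and 0.60 in non-diabetic mice. For Cfp the average joins effects whose interaction passed only without a covariate. The averaged call of Cfp was lost without non-diabetic mouse 1 (adjusted p = 0.0506) and without diabetic mouse 2 (adjusted p = 0.0555). C2 gave 0.51 (SE 0.18, adjusted p = 0.0568) with values above 0 in both strata. It passed in 7 of 28 alternatives, among them without non-diabetic mouse 1 or non-diabetic RBX mouse 3 and with the mean of probe sets (adjusted p = 0.0329). With the Actb ratio as a term C2 gave 0.11 (adjusted p = 0.920), and with the cre signal 0.95 (adjusted p = 0.172). Cfb gave 0.35 (SE 0.17, adjusted p = 0.165) and passed without non-diabetic RBX mouse 4 (0.46, adjusted p = 0.0457), while C5ar1 gave 0.45 (SE 0.18, adjusted p = 0.0784). The averaged effect of diabetes called 0 of 6 members in limma, against 0.0906% of all genes. Cfb was the 1 member with an unadjusted p under 0.05, as 9.92% of all genes had (0.52, SE 0.17, adjusted p = 0.313), and its means were higher with diabetes both with RBX (0.46) and without (0.58).

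The rest of the cascade was read through 47 further complement genes, 38 with a probe set of their own and 20 above the filter. The 18 others with a probe set lay below it, among them Hc, which encodes C5, the genes of the terminal components C8a, C8b, C8g and C9, and the mannose-binding lectins Mbl1 and Mbl2. With RBX in non-diabetic mice 7 of the 20 rose and 1 fell, and 19 lay above 0 with a median of 0.41. Over all genes 16.5% rose, 15.1% fell and 53.1% lay above 0. The filter keeps a gene through its high groups, so these counts cover only the genes that passed it. In Masp1 and C6 the non-diabetic mice lay below it on average, and without this pair 6 of 18 rose. Of the genes that start the lectin pathway 2 of 3 rose. They were Fcna, the pattern-binding ficolin A (1.30, SE 0.25, adjusted p = 0.000795), with 2696 ± 1489 in non-diabetic RBX mice, against 992 ± 80.4 in non-diabetic mice, and the protease gene Masp1 (1.20, SE 0.34, adjusted p = 0.0130), with 844 ± 254, against 361.5 ± 94.5 in non-diabetic mice, below the filter. Without Masp1 1 of the remaining 2 genes of that start rose. Of the 5 genes that start the classical pathway 1 rose, C1qb, a chain of C1q (0.47, SE 0.14, adjusted p = 0.0181).

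Among the other complement receptors 3 of 5 rose with RBX in non-diabetic mice, where 16.5% of all genes rose and 15.1% fell. They were Cd93, a glycoprotein of endothelial and myeloid cells first described as a C1q receptor (0.89, SE 0.16, adjusted p = 0.000367), Itgb2, the chain that complement receptors 3 and 4 share (0.89, SE 0.24, adjusted p = 0.00903), and Vsig4, a macrophage receptor for C3b (0.93, SE 0.34, adjusted p = 0.0438). Cd93 gave 33420 ± 6056 in non-diabetic RBX mice, against 17996 ± 3266 in non-diabetic mice, without overlap, as in 14.3% of all genes. Of the 3 fluid phase regulators 1 rose, the factor H-related gene Cfhr2 (0.60, SE 0.20, adjusted p = 0.0285). Cd59a, whose product blocks the membrane attack complex, fell by 0.49 (SE 0.13, adjusted p = 0.00919), with 3880 ± 848 in non-diabetic RBX mice, against 5372 ± 242 in non-diabetic mice, the 1 call among 3 membrane regulators. C6, the only terminal component above the filter, gave 0.17 (adjusted p = 0.765). Without non-diabetic mouse 1 or mouse 4 the count of calls was 5, and those lost were C1qb, Cfhr2 and Vsig4. Cfhr2 and Vsig4 each lost their call in 6 of the 8 fits that left out 1 mouse, and C1qb also without non-diabetic RBX mouse 4 (adjusted p = 0.0662). With the cre signal as a term none of the 8 calls remained, and the values were 0.30 for Cd93 (adjusted p = 0.675), 0.17 for Itgb2 (adjusted p = 0.917) and 2.26 for Fcna (adjusted p = 0.0572). With the Actb ratio Fcna alone was called (2.30, adjusted p = 0.0194), while Cd93 gave 0.86 (adjusted p = 0.155) and Itgb2 missed the threshold too (adjusted p = 0.282).

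In diabetes without RBX 2 of the 20 rose, Cd93 (0.74, SE 0.16, adjusted p = 0.0336) and Fcna (1.11, SE 0.25, adjusted p = 0.0477), where 0.326% of all genes rose, and 19 lay above 0 with a median of 0.31. Fcna gave 2182 ± 542 in diabetic mice, against 992 ± 80.4 in non-diabetic mice, without overlap, as in 4.56% of all genes. Both lost their call without any of non-diabetic mice 1, 2 and 4 and diabetic mice 2, 3 and 4, with an adjusted p from 0.0509 to 0.206. With the cre signal as a term neither was called, at 0.57 for Cd93 (adjusted p = 0.220) and 1.40 for Fcna (adjusted p = 0.0507), and with the Actb ratio Cd93 was not (adjusted p = 0.0925). RBX in diabetic mice called 0 of the 20 in limma, with 1 at an unadjusted p under 0.05, against 0.0453% and 9.2% of all genes. Diabetes with RBX gave the same counts, against 7.1% and 24% of all genes. The interaction passed for Cd93 (-1.02, SE 0.22, adjusted p = 0.00656), Itgb2 (-1.12, SE 0.34, adjusted p = 0.0394) and Fcna (-1.15, SE 0.35, adjusted p = 0.0410), all with the sign of Cfp, in a comparison where 5.51% of all genes fell. Cd93 kept this call without any 1 mouse but not with the cre signal (-0.54, adjusted p = 0.451) or the Actb ratio (adjusted p = 0.0626) as a term, while Fcna and Itgb2 lost theirs in 11 of 16 such fits each, with an adjusted p up to 0.0969. With the cre signal both lost it, and with the Actb ratio Itgb2 did (adjusted p = 0.139) and Fcna did not (adjusted p = 0.0198).

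**Figure D3:**
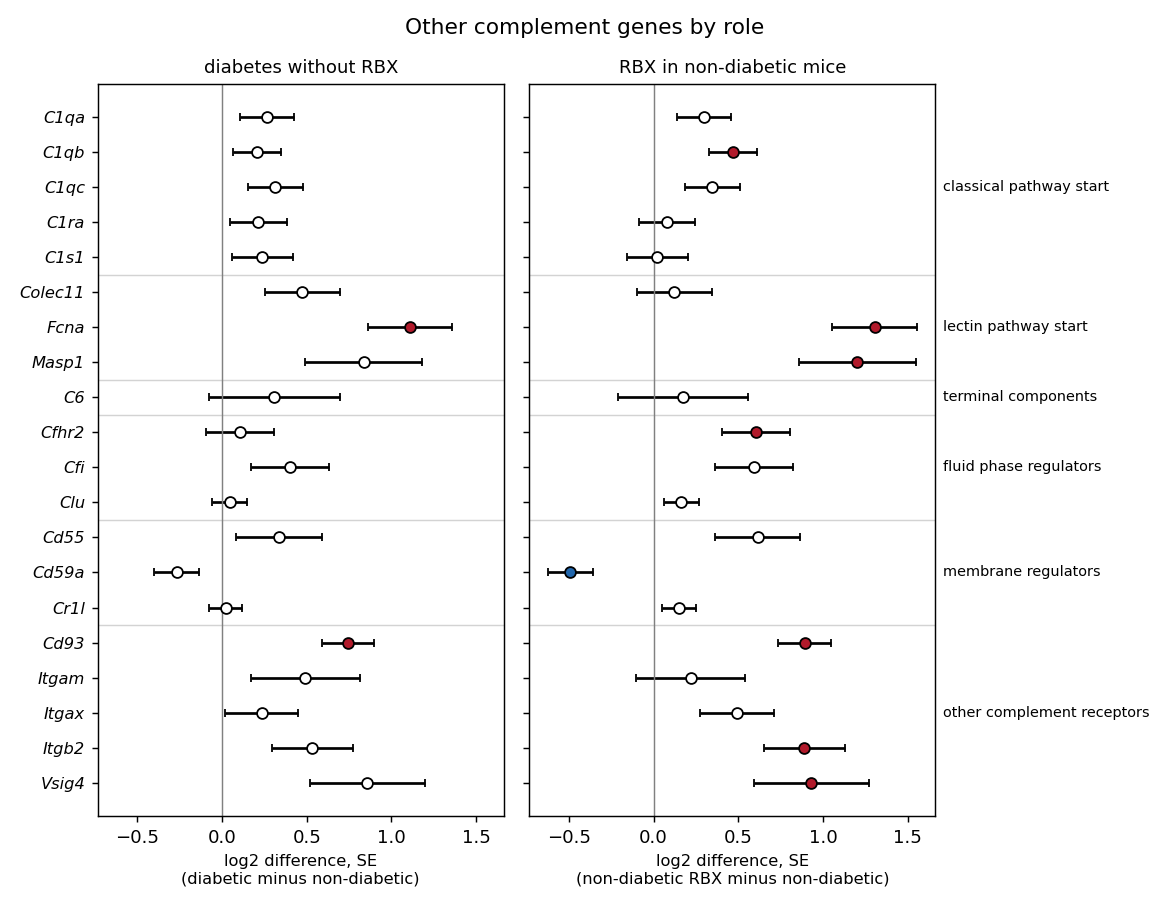
Log2 difference with its SE (x) of the 20 other complement genes tested (y), grouped by role, for diabetes without RBX (left) and RBX in non-diabetic mice (right), with red for a rise and blue for a fall at adjusted p under 0.05. Red points are Fcna and Cd93 on the left and 7 genes on the right, where Cd59a, at -0.49, is the only blue point.

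The members did not vary as 1 block across the 16 arrays. Cfp went with C3ar1 (Pearson r = 0.72 on log2 signals) and with C5ar1 (r = 0.70), and Serping1 went with Cfb (r = 0.72) and C2 (r = 0.64). C5ar1 was at 0.57 with Serping1 and at 0.54 with C3ar1. C3ar1 was at 0.01 with Serping1, -0.00 with Cfb and at -0.38 with C2. The genes most like C3ar1 in their pattern were the lysosomal protease genes Ctsz (r = 0.93) and Ctsd (0.92) and the phagocyte oxidase subunit Cybb (0.93), and for Cfp they were the kinase Plk2 (0.95), the semaphorin receptor Plxnd1 (0.93) and the endothelial gene Egfl7 (0.93). For Serping1 they were the lysophosphatidic acid receptor Lpar1 (0.93), the transporter Abca9 (0.93) and Selenom (0.92). For Cfb they were the urea transporter Slc14a2 (0.88), Fndc1 (0.87) and the classical pathway protease C1ra (0.84). For C2 they were Lias (0.86), the growth factor receptor Fgfr1 (0.86) and Stom (0.83), and for C5ar1 Cpne8 (0.87), Rnaseh2a (0.86) and the immunoproteasome subunit Psmb8 (0.86). These correlations describe arrays that share groups, scaling and RNA quality, and they carry no test.

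The 3 calls of RBX in non-diabetic mice were set against each way of processing. Apart from the 2 fits with a covariate of array quality, Cfp kept its call in 19 of 19 alternatives (0.72 to 1.03), Serping1 in 19 of 19 (0.42 to 0.78) and C5ar1 in 18 of 18 (0.70 to 1.10), in each of which the gene was tested. The fit of all probe sets apart counts a gene by its probe set of smallest p, so a call is hard to lose there. In that fit Cfp 1447537_at (adjusted p = 0.189) and C5ar1 1422190_at (adjusted p = 0.370) were not called. With the log2 cre signal as a covariate Cfp gave 0.80 (adjusted p = 0.396), Serping1 1.01 (adjusted p = 0.129) and C5ar1 0.75 (adjusted p = 0.562), and 0 of all genes were called for this comparison. With the Actb ratio as a covariate, chosen after seeing the data, they gave 1.03 (adjusted p = 0.169), 0.74 (adjusted p = 0.206) and 1.02 (adjusted p = 0.298), where 174 genes were called in all. None of the 3 passed in these fits, and the value of Serping1 was 0.60 without a covariate. C3ar1 turned to -0.22 with the cre covariate (adjusted p = 0.827).

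**Figure D4:**
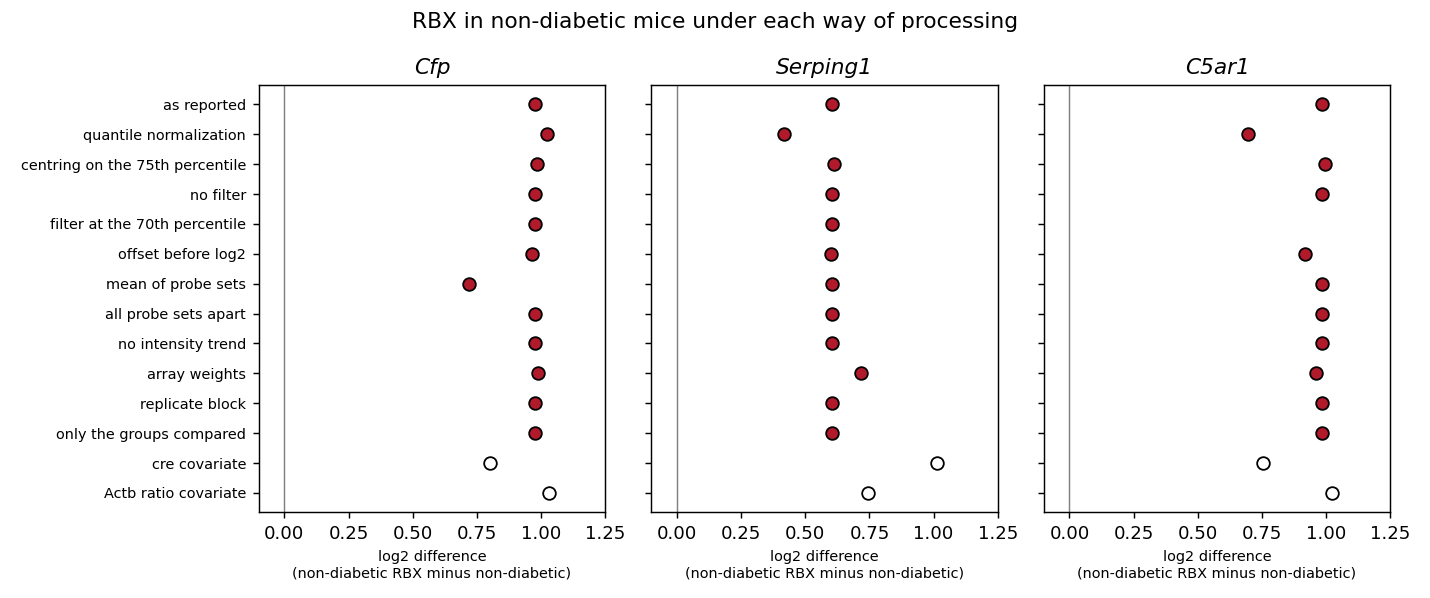
Log2 difference (x) of Cfp, Serping1 and C5ar1 between non-diabetic RBX and non-diabetic mice under each way of processing (y), filled where the adjusted p was under 0.05. Open points appear only in the fits with the cre signal or the Actb ratio as a covariate, and C5ar1 has no point at the filter of the 70th percentile, which removed it. The point for all probe sets apart is that of the gene's probe set of smallest p.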

How the data were processed

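Biotinylated cRNA was made from Trizol-extracted total RNA, per the labels' protocols. The deposited values are linear intensity signals of 45101 probe sets, which the authors made with MAS5, per the submitters' processing notes, with a version not given in the sources used here. Every deposited array had the same mean of 1500.01 after trimming 2% at each end, so signals are relative to the array average. Detection calls were not used here.

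Gene names came from the platform annotation (34958 probe sets with 1 symbol, 932 with several, 9211 with none, 64 of the total being controls). Looked up by Entrez identifier, 99.4% of those with 1 symbol were in RefSeq's genes of GRCm38.p6, and 0 symbols changed. Log2 was taken without an offset. Probe sets with a mean log2 signal above the median of all (382.961 in linear signal) were kept, and the highest was used per gene, which left 11037 genes. limma 3.58.1 in R 4.3.3 (files read with version 1.17.8 of data.table) fitted 4 group means over 16 arrays with an intensity trend, 12 residual and 6.20 prior degrees of freedom. P-values were two-sided, adjusted by Benjamini-Hochberg over all genes of each comparison, and called under 0.05. The fit was tested on simulated data. Figures and promoter searches used Python 3.11.15 with pandas 2.3.3 and matplotlib 3.10.9. No 2 arrays held identical values (highest rank correlation 0.942). The titles call the samples biological replicates and the design text gives individual mice.

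The members and gene lists were chosen with earlier results of these data known. By rule the text names the 8 members, the other complement genes past the threshold in a comparison of 2 groups (or the 2 of smallest p in a role without one), and the 3 genes most correlated with each member. The alternatives changed the scaling (quantile normalization, or the 75th percentile as centre), the filter (none, or the 70th percentile), the offset (30.5), the handling of several probe sets (their mean, or each apart), the variance model (array weights, or no trend), and the samples (the compared groups only, or each array left out). A replicate block, the cre signal and the Actb ratio were each added as terms. Replicate numbers did not pair the mice and were not used in the fit. The number of arrays limits the precision.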

Additional observations from a re-analysis of the deposited data

Results flagged for a closer look

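Of 60 groups of 4 mice checked among the members and the other named complement genes, 5 held 1 mouse far from the other 3, where chance alone gives about 1 in 20. They were C3ar1 in diabetic RBX mouse 4 (8895.7, the highest of its group), Cd93 in diabetic RBX mouse 4 (25306.8, the lowest), Vsig4 in diabetic RBX mouse 4 (661.3, the lowest), Masp1 in non-diabetic RBX mouse 2 (472.1, the lowest) and Cfhr2 in non-diabetic mouse 3 (1263.9, the highest). In 3 of the 5 it was diabetic RBX mouse 4.

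The interaction of diabetes and RBX passed in limma for Cfp (-1.02), Fcna (-1.15), Cd93 (-1.02) and Itgb2 (-1.12). With the cre signal as a term none of them was called (adjusted p from 0.104 to 0.685), and with the Actb ratio only Fcna was. Fcna and Itgb2 kept their call in 5 of 16 fits without 1 mouse each, Cfp in 15 and Cd93 in 16. Each had a value above 0 for RBX in non-diabetic mice. In diabetic mice the effect was -0.05 for Cfp, 0.15 for Fcna, -0.13 for Cd93 and -0.23 for Itgb2, with no call.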

How the results depend on the processing

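Counts of members called, and then of other complement genes called, were 0 and 2 for diabetes without RBX, 0 and 0 for RBX in diabetic mice, 3 and 8 for RBX in non-diabetic mice, 0 and 0 for diabetes with RBX, 1 and 3 for the interaction, 0 and 0 for the averaged effect of diabetes and 2 and 3 for that of RBX. In the same order, leaving out 1 array gave 0 to 1 and 0 to 2, 0 and 0, 3 to 4 and 5 to 11, 0 and 0 to 1, 0 to 3 and 1 to 4, 0 and 0 to 1, and 1 to 3 and 3 to 5. The members' counts moved with array weights (2 for diabetes without RBX, 2 for the interaction) and without the trend (2 for the interaction). They were 5 for RBX in non-diabetic mice with all probe sets apart, a fit with 3659 calls in all. With either covariate they were 0 for RBX in non-diabetic mice, the interaction and averaged RBX. For diabetes without RBX, array weights called 1209 genes in all, against 72 in the report, so the fit called more genes of all kinds. For the interaction 1778 genes were called in all with array weights and 1030 without the trend. The replicate numbers did not pair the mice, since same-numbered deviations correlated at -0.14 to 0.18 and 3 of 16 arrays correlated best with their own number. With the replicate block 1 member (Cfp, adjusted p = 0.0348) was called for diabetes without RBX, and 184 genes in all against 72. The other complement genes called for diabetes without RBX were 1 with no filter, an offset or the Actb ratio, 5 with array weights, and 0 with the mean of probe sets, probe sets apart, no trend or the cre covariate. For RBX in non-diabetic mice they were 9 with quantile normalization, 5 with the 70th percentile filter, 0 with cre and 1 with the Actb ratio. For the interaction they were 1 with no filter, no trend or the Actb ratio, 4 with quantile normalization, 5 with the mean of probe sets or array weights, and 0 with cre. For averaged RBX they were 5 with quantile normalization, 6 with probe sets apart and 0 with either covariate, and for diabetes with RBX 1 with quantile normalization. Most values that turned sign were small in the report. None had passed, except C1qb (cre, -0.25), Cfhr2 (-0.043) and Vsig4 (-0.086, both with the Actb ratio) for RBX in non-diabetic mice. In that comparison C6 turned with quantile normalization (-0.13), cre (-0.074) and the Actb ratio (-0.95), and C3ar1, at 0.37 in the report, with cre (-0.22). C3ar1 turned for averaged diabetes with the mean of probe sets (0.016), probe sets apart (0.048), array weights (0.041), cre (0.037) or an array left out (-0.090 to 0.071), for averaged RBX with probe sets apart (-0.19) or cre (-0.25), and for diabetes with RBX with cre (0.011). Cfp turned for RBX in diabetic mice with the mean of probe sets (0.046), probe sets apart (0.14) or an array left out (-0.27 to 0.13), and C5ar1 with an array left out (-0.21 to 0.076). For diabetes with RBX, Serping1 turned with quantile normalization (0.050) and with an array left out (-0.22 to 0.12), and C2 with cre (-0.29) and with an array left out (-0.23 to 0.33). For the interaction C2 turned with the Actb ratio (0.18) or an array left out (-0.53 to 0.028) and Cfb with an array left out (-0.35 to 0.16). The cause was not tested in any of these. Dim probe sets such as those of C5ar1, C6 and Masp1 lie near the filter, where signal over background limits what can be read.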
